A study of Mus musculus with 11 samples.

Results

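The genes described here are 8 markers that rise as mouse embryonic stem cells (ESCs) leave the naive state of pluripotency, the ground state of the early epiblast, for the formative state and then the primed state of the later epiblast. They are Fgf5, Otx2, Pou3f1, Foxd3, Zic2, Sall2, Sox4 and Grhl2, chosen by name from what is known of this transition. The choice of these genes and of the lists below was made with earlier results of these data known. They are 8 of the 54838 genes for which reads were counted. Levels are given in CPM, counts scaled to the total count of their library. All 8 had more than 1 CPM in at least 4 libraries, the level asked of a gene before it was tested, and so did 16073 genes in all.

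Pluripotent cells pass through an ordered set of states. Naive cells are held by a network of transcription factors that includes Klf4, Esrrb and Nanog. On release, this network is shut down, the cells become competent to form germ layers, and new enhancers are opened by factors such as Otx2, Pou3f1, Zic2, Foxd3 and Grhl2, while the growth factor Fgf5 becomes one of the most used markers of the new state. In cultures kept in leukaemia inhibitory factor (LIF) with serum replacement, the states coexist to some extent, so that formative markers can be read at low or moderate levels without any differentiation stimulus.

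Cells of the E14 mouse ESC line were grown on gelatin with LIF and were transfected with a control scramble siRNA (3 libraries), with CMTR1 siRNA 1 (4 libraries) or with CMTR1 siRNA 2 (4 libraries). RNA was taken 36 h after transfection, ribosomal RNA was depleted, and directional libraries were sequenced. CMTR1 is the cap methyltransferase that methylates the ribose of the first transcribed nucleotide of RNA polymerase II transcripts. The comparisons ask what lowering CMTR1 does to RNA levels, and both CMTR1 siRNAs target the same gene at different places and were set against the same 3 control libraries. No genetic change or differentiation stimulus is given for any group. The labels number the libraries of each group and do not say that each was a separate culture, and the study's methods give fewer biological replicates than there are libraries of each CMTR1 siRNA, so the p-values measure the spread between these libraries, part of which may be technical.

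The libraries held 6738478 to 8382318 reads counted in genes. Cmtr1 itself had 17.9 to 21.7 CPM in the control libraries, 16.2 to 21.3 CPM with siRNA 1 and 15.6 to 19.5 CPM with siRNA 2. Its log2 fold change was -0.088 ± 0.11 (SE) with siRNA 1 (edgeR adjusted p = 0.743) and -0.25 ± 0.11 with siRNA 2 (edgeR adjusted p = 0.144), so the groups are named throughout by their labels. Cmtr1 shares 34.9% of its exon bases with Gm28043 on the same strand, which had 24 to 50 reads per library, and 47.2% with Ccdc167 on the other strand. Reads of shared bases may be missing from the Cmtr1 count or come from a neighbour, so these values do not settle how far Cmtr1 RNA was lowered. All 10 defining ESC markers were tested, and their summed level was 2520 to 2650 CPM in control libraries, 2260 to 2410 CPM with siRNA 1 and 2310 to 2430 CPM with siRNA 2. Of these, 6 fell with siRNA 1, and 3, Nanog, Zfp42 and Esrrb, fell with siRNA 2, beside 1.97% and 3.55% of all genes tested. Nanog, Zfp42, Esrrb and Fbxo15 are also in the list of naive markers below, where their falls are counted again.

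Since CMTR1 acts on the first transcribed nucleotide, the annotated starts of the members are shown first. RefSeq (GRCm38.p6) gave 9 start sites for 5 of the 8 members, with none read here for Pou3f1, Zic2 and Grhl2. Each line holds 25 bases before the start and the first 5 bases of the transcript, 5′ to 3′ on the gene's strand, and the capital marks the first transcribed base. Fgf5 and Foxd3 each have 1 start, Sall2 has 2, Sox4 has 1, and for Otx2 1 of its 4 starts is shown, the start from which the largest number of GENCODE transcripts of the gene begin.
Fgf5, chr5:98254159-98254188, plus strand: aaagcggcgggtgaggggaagcttcGcagg
Otx2, chr14:48667504-48667533, minus strand: ctcagcaaatctccctgagagcggaAcctt
Foxd3, chr4:99656274-99656303, plus strand: cctgaaccccacgcccaaaccagagGtcga
Sall2, first start, chr14:52328666-52328695, minus strand: caatatatatgagaaagtttgtgttGaagt
Sall2, second start, chr14:52316319-52316348, minus strand: tctcccccacaaactctcctcccccAtctc
Sox4, chr13:28953695-28953724, minus strand: aagaagcgcgaggcggaattggggtCtgct
Over all 32851 annotated starts, the first base was G in 35.6%, A in 34.4%, C in 16.3% and T in 13.7%. The starts printed for Fgf5, Foxd3, Otx2 and Sall2 begin with the more frequent purines and that of Sox4 with a C. The Otx2 starts not printed begin with T, A and C. No GENCODE transcript begins exactly at the Sox4 start or at the first Sall2 start. The reads were counted per gene, so the counts do not tell which start of Otx2 or Sall2 was used.

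Every member was transcribed in the control cells. To compare levels between genes, CPM was divided by the length of the gene's merged exons in kilobases. On this scale, the mean of the 3 control libraries was 33.0 ± 1.9 (SD) for Pou3f1, a POU factor of the epiblast and of neural precursors that is also called Oct6. It was 24.6 ± 0.974 for Zic2, a zinc finger factor of primed enhancers, 19.8 ± 0.859 for Sox4, an HMG-box factor of progenitor cells, and 17.6 ± 0.728 for Foxd3, a forkhead factor that remodels enhancers as cells leave the naive state. Lower levels were those of Otx2, a homeodomain factor that directs Oct4 to new enhancers (11.1 ± 0.511), of Sall2, a zinc finger relative of Sall4 (8.8 ± 0.569), and of Grhl2, a grainyhead factor that opens enhancers of epithelial genes (7.35 ± 0.229). Fgf5, the secreted ligand of the group, was lowest at 3.05 ± 0.298 CPM per kb.

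The order of these control levels was the same in each of the 3 control libraries, and no neighbours in the order overlapped. The libraries share the exon lengths used, so their agreement does not check that scale. In mean control CPM without it, Sox4 (95.2) stood above Zic2 (70.8), and Grhl2 (63.3) above Foxd3 (40.8). Per kb, the closest pairs were Sox4 and Foxd3, and Sall2 and Grhl2. The lowest Sox4 library had 19.3 CPM per kb and the highest Foxd3 library 18.2, and for Sall2 and Grhl2 these were 8.3 and 7.58. Among all genes tested, Pou3f1 stood above 90.8% and Fgf5 above 39.9% in CPM per kb. The 8 markers were thus spread over the middle and upper range of expressed genes in control ESCs, with Fgf5 below the median.

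**Figure D1:**
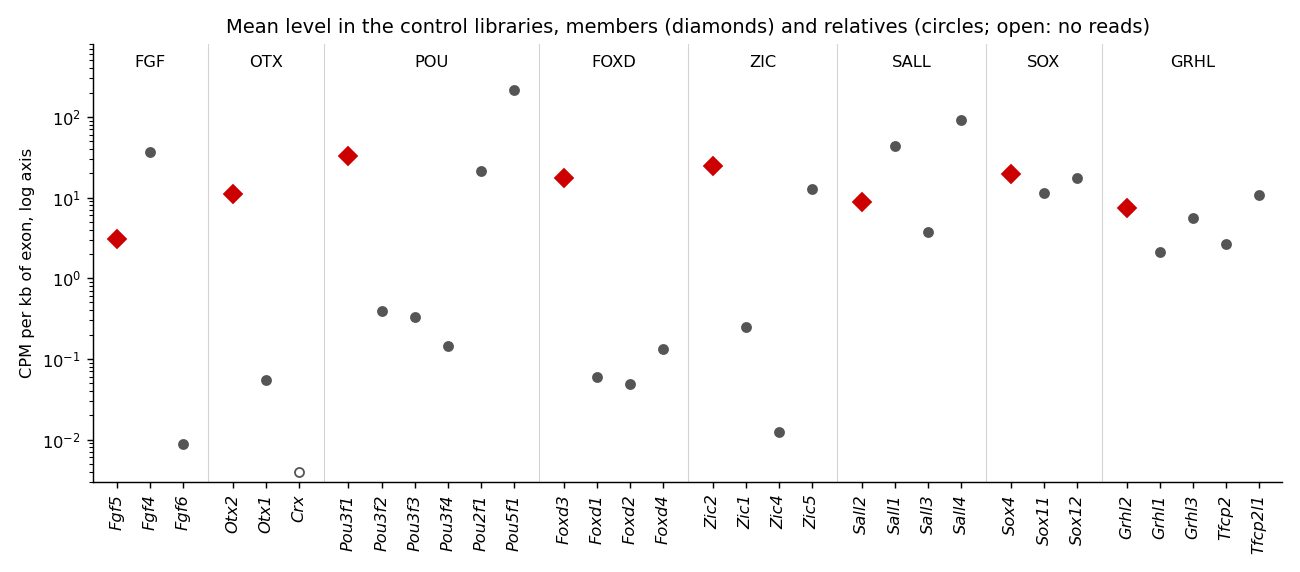
Mean CPM per kb of exon in the 3 control libraries (log axis) for the 8 members (red diamonds) and their listed relatives (grey circles), grouped by family. Pou3f1 is at 33.0 and Fgf5 at 3.05, Fgf4 is at 36.9 and Pou5f1 at 215, and Crx, drawn open at the bottom edge, had no reads in control libraries.

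Some relatives of the members were more abundant per kb than the member itself. Fgf4, the ligand that ESCs make to drive their own exit, had 36.9 CPM per kb in control against 3.05 for Fgf5. Pou5f1 (Oct4) had 215 CPM per kb, and Sall4 had 91.1 against 8.8 for Sall2. In the OTX and FOXD families the member was the only one of the listed genes to pass the filter, and in all 16 of 24 listed relatives passed. Of these 16, Sox11 rose and Fgf4, Pou5f1 and Tfcp2l1 fell with siRNA 1. With siRNA 2, Sall3 rose and Fgf4, Tfcp2l1, Sall1 and Pou2f1 fell. Of all genes tested, 4.67% rose or fell with siRNA 1 and 9.72% with siRNA 2. The plot of control levels by family shows these differences on a log scale.

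Reads of neighbouring transcripts touch some of these values. Sox4 shares 54.6% of its exon bases with the antisense gene Gm26735, which had 32 reads over all 11 libraries, and Pou3f1 shares 8.6% with the antisense gene Gm2164, which had 215. Otx2os1, antisense to Otx2, had 68 reads over all libraries, and Gm16136, antisense to Grhl2, had 119. The libraries were directional, but the strand setting of the counting is not given in the sources used here. The reads of these pairs thus cannot be fully told apart, and reads of shared bases may be missing from a member's count. The reads of the antisense genes do not show how many are missing, which bears most on Sox4 and its level per kb.

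The first comparison asks which members differed with CMTR1 siRNA 1. Sox4 rose by 19.7% and Grhl2 fell by 19.9%. The other 6 members, among them Fgf5 and Otx2, did not pass the test. The members called were thus 2 of 8, 1 in each direction, while 4.67% of all genes tested were called with this siRNA, 2.71% as higher and 1.97% as lower. Of all genes called with siRNA 1, 57.9% were higher, or 46.4% with TMM factors (a scaling by the bulk of genes), under which the same 2 members were called in the same directions.

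Sox4 (ENSMUSG00000076431, chromosome 13 of GRCm38, 28948919 to 28953713, minus strand) had 99.9, 93.0 and 92.6 CPM in the control libraries, and 119, 117, 112 and 109 CPM with siRNA 1. All 4 siRNA 1 libraries lay above all 3 controls. The log2 fold change was 0.26 ± 0.055 (SE; 95% interval 0.15 to 0.37), with an adjusted p of 0.00223 by edgeR's quasi-likelihood test with Benjamini-Hochberg adjustment over all genes. Each of these values rests on 688 to 935 reads, and the spread between control libraries (a coefficient of variation of 4.33%) was close to the 3.67% that counting alone gives.

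Grhl2 (ENSMUSG00000022286, chromosome 15, 37233036 to 37363569, plus strand) had 61.3, 63.3 and 65.3 CPM in control and 50.8, 47.6, 50.8 and 53.6 CPM with siRNA 1. Here all 4 siRNA 1 libraries lay below all controls. The log2 fold change was -0.32 ± 0.069 (95% interval -0.46 to -0.19, edgeR adjusted p = 0.00258). Because these are bulk samples, fewer cells of a formative or epithelial character and less RNA of the gene per cell cannot be told apart. Both calls, of Sox4 and of Grhl2, held under every alternative run, including the removal of each of the 11 libraries in turn. Over these removals the log2 fold change ran from 0.24 to 0.30 for Sox4 and from -0.35 to -0.29 for Grhl2. Removal of a siRNA 2 library left it at 0.26 and -0.32, since those libraries are not part of this comparison.

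Sall2 had 47.2, 51.2 and 45.1 CPM in control and 64.3, 58.3, 50.6 and 52.8 CPM with siRNA 1. Of the siRNA 1 libraries, replicate 3 lay within the control range and the other 3 above it. The log2 fold change of 0.24 ± 0.079 (95% interval 0.08 to 0.39) was nearly that of Sox4 in size, but its spread was wider and the edgeR adjusted p was 0.0796. It passed the threshold in a fit of the 2 groups alone (edgeR adjusted p = 0.0449), with no filter on low counts (0.0418) and without siRNA 1 replicate 3 (0.0296).

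Zic2 had 67.5 to 72.4 CPM in control and 72.5 to 78.8 CPM with siRNA 1. Its groups did not overlap, by a narrow margin, yet its log2 fold change of 0.10 ± 0.062 did not pass (edgeR adjusted p = 0.411). In all, 3 of the 8 members, Sox4, Grhl2 and Zic2, had no overlap between siRNA 1 and control, as did 15.5% of all genes tested. Pou3f1 had 134, 120 and 126 CPM in control and 144, 143, 125 and 131 CPM with siRNA 1, a log2 fold change of 0.098 ± 0.062 with overlapping groups (edgeR adjusted p = 0.454).

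Neither Otx2 nor Foxd3 passed with siRNA 1. Otx2 had 44.6, 48.7 and 47.6 CPM in control and 48.5, 50.2, 50.2 and 48.6 CPM with siRNA 1, and its log2 fold change was 0.073 (95% interval -0.06 to 0.20, edgeR adjusted p = 0.635). Foxd3 had 39.0, 42.3 and 41.2 CPM in control and 39.0, 40.0, 36.6 and 37.2 CPM with siRNA 1, and its log2 fold change was -0.096 (95% interval -0.26 to 0.07, edgeR adjusted p = 0.619). These intervals leave room for a difference of up to 0.20 upward for Otx2 and 0.26 downward for Foxd3 on the log2 scale.

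Fgf5, the member most often used to mark the formative state, had 7.87, 6.78 and 8.21 CPM in control and 8.46, 5.48, 9.38 and 8.02 CPM with siRNA 1. The siRNA 1 libraries lay on both sides of the control range. Its log2 fold change was 0.035 with a 95% interval from -0.28 to 0.35, the widest of the 8 (edgeR adjusted p = 0.947). Fgf5 was counted from 44 to 71 reads per library, for which counting alone gives a coefficient of variation of 13.0% in control. The spread was 9.78% between control libraries and 21.3% between siRNA 1 libraries, and the interval holds a rise of the size seen for Sox4.

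**Figure D2:**
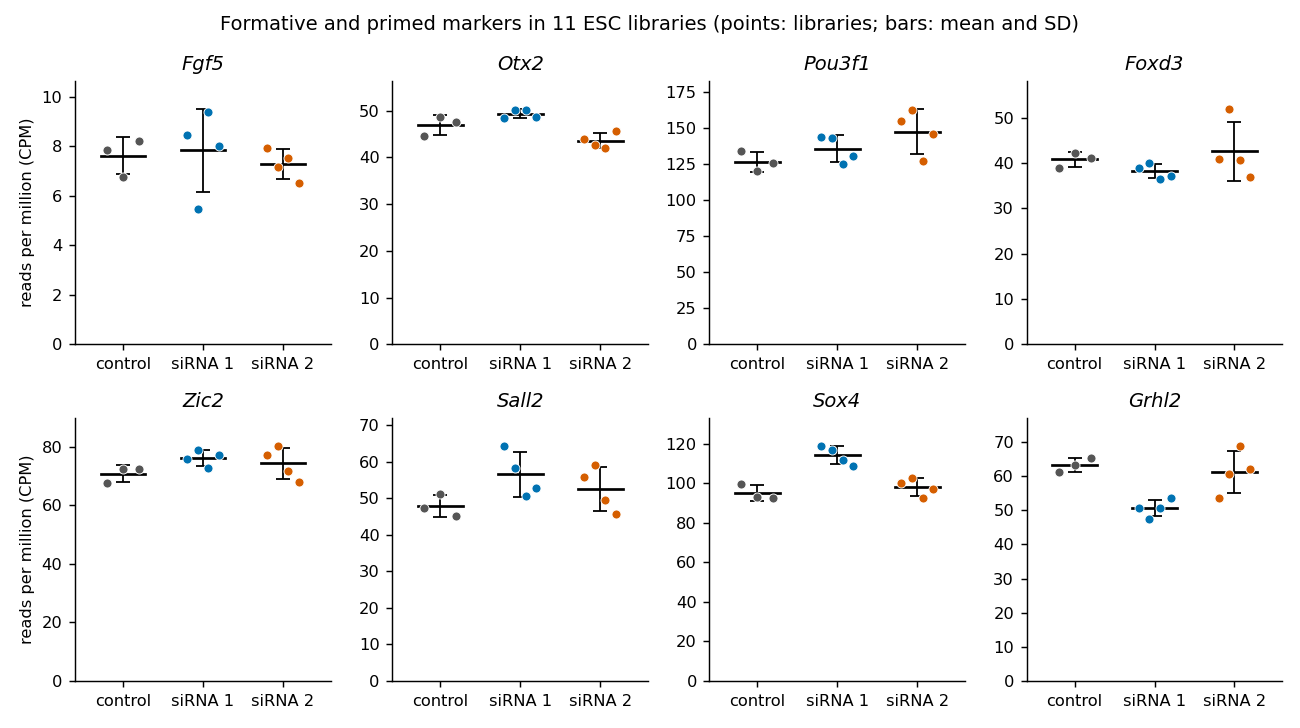
CPM of each member in each of the 11 libraries (points), with the mean (bar) and SD (whiskers) of the 3 control, 4 siRNA 1 and 4 siRNA 2 libraries, on axes that start at 0. Sox4 with siRNA 1 (109 to 119 CPM) sits above control (92.6 to 99.9 CPM), Grhl2 with siRNA 1 (47.6 to 53.6 CPM) sits below it (61.3 to 65.3 CPM), and the siRNA 2 points overlap control in all 8 panels.

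The same question was asked of CMTR1 siRNA 2. Pou3f1 rose by 16.5%, and the other 7 members, Sox4 and Grhl2 included, did not pass the test. This was 1 of 8 members, while 9.72% of all genes tested were called with siRNA 2, 6.17% as higher and 3.55% as lower. The higher genes made up 63.4% of these calls, or 49.8% with TMM factors, under which Pou3f1 was called as well. The libraries of siRNA 2 and control overlapped for every member, whereas they were separate for 19.4% of all genes tested.

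Pou3f1 (ENSMUSG00000090125, chromosome 4, 124656807 to 124660655, plus strand) had 155, 163, 127 and 146 CPM with siRNA 2, against 134, 120 and 126 CPM in control. Replicates 1, 2 and 4 lay above all controls, and replicate 3 lay within the control range. The log2 fold change was 0.22 ± 0.062 (95% interval 0.10 to 0.34, edgeR adjusted p = 0.0169). The call was lost without control replicate 2 (edgeR adjusted p = 0.13), control replicate 3 (0.067), siRNA 2 replicate 1 (0.0618) or siRNA 2 replicate 2 (0.0954), and in DESeq2 (adjusted p = 0.0826), while the log2 fold change stayed between 0.17 and 0.28 over all alternatives.

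Sox4 had 100, 103, 92.5 and 97.3 CPM with siRNA 2, which straddled the control range. Its log2 fold change was 0.046 (95% interval -0.06 to 0.15, edgeR adjusted p = 0.679). Grhl2 had 53.7, 60.7, 68.9 and 62.0 CPM with siRNA 2, on both sides of the control libraries, and a log2 fold change of -0.044 (95% interval -0.18 to 0.09, edgeR adjusted p = 0.752). The lowest of these libraries, replicate 1, decided the sign of the Grhl2 value, which was 0.011 without it.

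Otx2 had 43.9, 42.7, 42.1 and 45.7 CPM with siRNA 2. Of these 4 libraries, 3 lay below all controls, and the log2 fold change was -0.11 ± 0.067 (edgeR adjusted p = 0.34). Foxd3 had 40.8, 51.9, 40.7 and 36.9 CPM, of which replicate 2 alone lay above the control range. Its log2 fold change of 0.064 (edgeR adjusted p = 0.693) became -0.051 without that library.

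Sall2 had 55.8, 59.2, 49.5 and 45.6 CPM with siRNA 2 and a log2 fold change of 0.13 ± 0.08 (edgeR adjusted p = 0.32). Its replicates 1 and 2 lay above control, and replicates 3 and 4 within its range. Zic2 had 68.0 to 80.2 CPM and a log2 fold change of 0.069, and Fgf5 had 6.54 to 7.95 CPM and a log2 fold change of -0.064 (95% interval -0.38 to 0.25). The same siRNA 2 libraries, replicates 1 and 2, had the highest values of the group for Pou3f1, Sall2, Zic2 and Sox4, and a mean log2 CPM over the 8 members of 5.70 and 5.78, against 5.65 and 5.61 in replicates 3 and 4 and 5.64 to 5.66 in control. Replicates 1 and 2 had 39.85% and 39.25% of reads in no gene, against 44.27% in replicate 3, with no value for replicate 4. In siRNA 1 replicate 1, by contrast, a mean of 5.75 stood beside 43.11%, and the part of this share in the values was not tested.

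Other cell types were looked for beside these results. With siRNA 2, 3 of the 6 tested fibroblast markers were called, Col1a1 and Dcn higher and Col3a1 lower. Col3a1 had 1.21 to 2.16 CPM in control, 0.445 to 1.19 CPM with siRNA 1 and 0.247 to 0.852 CPM with siRNA 2. It thus passed the filter through control and siRNA 1 libraries alone, which favours a call as lower, so no weight is put on it. Dcn was low too, at 1.6 to 2.03 CPM in control and 3.1 to 4.53 CPM with siRNA 2. The fibroblast list summed to 36.9 to 43.5 CPM with siRNA 2, against 26.1 to 31.5 CPM in control and 29.1 to 31.5 CPM with siRNA 1. In each group 1 of its 8 genes had no reads. Markers of 2-cell-like cells, a rare state of ESC cultures, summed to 20.9 to 23.9 CPM with siRNA 2 against 13.6 to 14.1 CPM in control and 11.8 to 15.0 CPM with siRNA 1, and 2 of 4 tested, Zscan4d and Usp17lc, rose. Of 7 tested trophoblast markers, Plet1 rose with siRNA 2. The list summed to 18.5 to 20.8 CPM with siRNA 2, against 16.9 to 17.9 CPM in control and 16.0 to 20.1 CPM with siRNA 1. Of all genes tested, 9.72% were called with siRNA 2. DESeq2 called fewer of these markers with siRNA 2, with 1 fibroblast marker and 1 marker of 2-cell-like cells higher, 0 fibroblast markers lower and 0 trophoblast markers. By edgeR, no marker of primitive endoderm (7 tested), neural cells (3 tested) or mesoderm (4 tested) was called with either siRNA, nor by DESeq2 or exactTest, while at an unadjusted p under 0.05 there were 2 neural markers higher with siRNA 1, and with siRNA 2 there was 1 lower in each of the 3 lists and 1 mesoderm marker higher. Neural markers summed to 88.2 to 94.0 CPM in control, 94.6 to 108 CPM with siRNA 1 and 77.9 to 100 CPM with siRNA 2. Whether any of these had a part in the values of the members was not tested.

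The siRNAs were then compared with each other, which asks whether the members answered in the same way to both. Sox4 and Grhl2 did not. With siRNA 2, Sox4 stood at 0.862 times and Grhl2 at 1.21 times its level with siRNA 1, and the libraries of the siRNAs did not overlap for either gene. The log2 difference was -0.21 ± 0.051 for Sox4 (edgeR adjusted p = 0.00526) and 0.28 ± 0.064 for Grhl2 (edgeR adjusted p = 0.00439), and both calls held under every alternative run. These were 2 of 8 members, while 7.44% of all genes tested differed between the siRNAs, with 4.49% higher and 2.96% lower with siRNA 2.

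For Otx2, too, the libraries of the siRNAs were apart, with 48.5 to 50.2 CPM for siRNA 1 and 42.1 to 45.7 CPM for siRNA 2, which makes 3 of 8 members against 11.8% of all genes tested. Its log2 difference of -0.18 ± 0.062 missed the threshold (edgeR adjusted p = 0.0619). Pou3f1, called with siRNA 2 and not with siRNA 1, was not shown to differ between them, with a log2 difference of 0.12 (95% interval 0.01 to 0.23, edgeR adjusted p = 0.202). Foxd3 differed by 0.16 (edgeR adjusted p = 0.216), Sall2 by -0.10, Zic2 by -0.035 and Fgf5 by -0.098, with edgeR adjusted p-values of 0.451, 0.791 and 0.772 for the last 3.

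**Figure D3:**
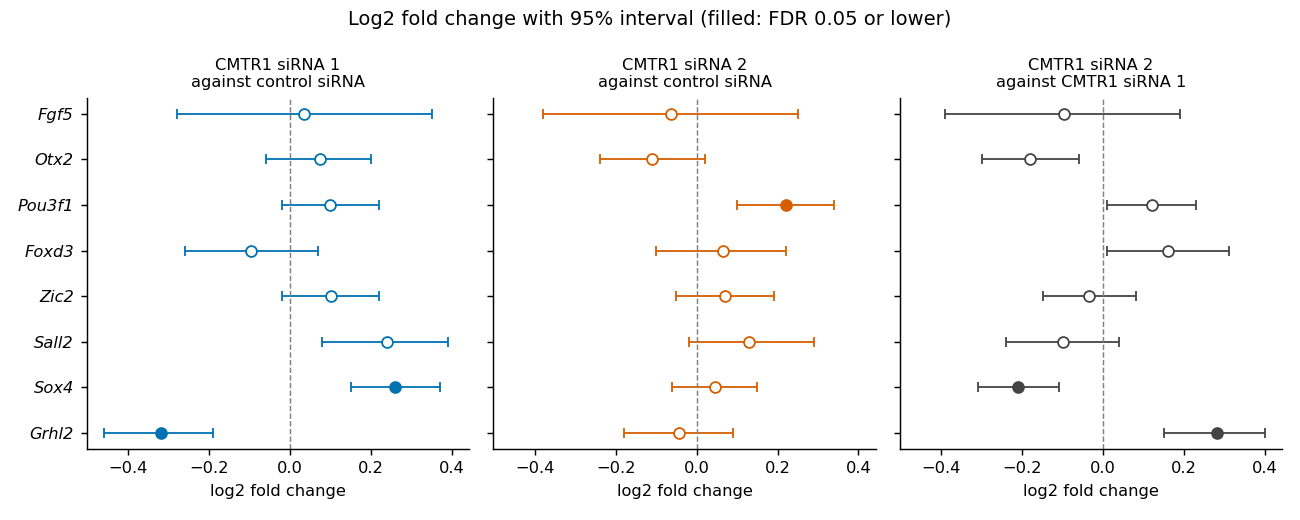
Log2 fold change of each member with its 95% interval for siRNA 1 against control, siRNA 2 against control, and siRNA 2 against siRNA 1, with filled points at an edgeR adjusted p of 0.05 or lower. Sox4 (0.26) and Grhl2 (-0.32) are filled for siRNA 1, Pou3f1 (0.22) for siRNA 2, and Sox4 (-0.21) and Grhl2 (0.28) again between the siRNAs, while the interval of Fgf5 is the widest in each panel.

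When both CMTR1 siRNAs were averaged, only Sox4 stayed at the threshold among the members, with a log2 fold change of 0.15 ± 0.049 and an edgeR adjusted p of 0.0495, while 6.91% of all genes tested were called. Grhl2 (-0.18 ± 0.06, edgeR adjusted p = 0.0542), Pou3f1 (0.16 ± 0.055, edgeR adjusted p = 0.0721) and Sall2 (0.18 ± 0.071, edgeR adjusted p = 0.111) came next. The scaling of the libraries decided which of them was called. With TMM factors, Grhl2 passed (edgeR adjusted p = 0.0258) and Sox4 did not (0.108), and without single libraries the number of members called ran from 0 to 3. Since Sox4 and Grhl2 differed between the siRNAs, the averaged value stands for neither siRNA alone. Otx2 (-0.017), Foxd3 (-0.016) and Fgf5 (-0.015) averaged to values close to 0.

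For the members called against control, the genes with the most similar course over the 11 libraries were sought among 8271 tested genes with a mean log2 CPM of at least 4. For Sox4 they were Greb1l, Klhdc2 and Apeh, with Pearson r of 0.97, 0.939 and 0.924. For Grhl2 they were Chd4 (0.923), Tmem64 (0.917) and Cdh1 (0.907), the last of which encodes E-cadherin. For Pou3f1 they were Ldlrad3 (0.943), Pmaip1 (0.934) and Epha1 (0.93). These correlations describe 11 libraries that share their groups and scaling, and carry no test.

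Other genes known to rise on leaving the naive state were called in both directions. Of 24 such genes, 3 rose and 1 fell with siRNA 1, and 3 rose and 3 fell with siRNA 2. Of all genes tested, 4.67% and 9.72% were called. The median log2 fold change was 0.018 with siRNA 1 and 0.044 with siRNA 2, beside 0.024 and 0.029 over all genes tested, and with TMM factors the siRNA 1 median turned to -0.002. For the 8 members the medians were 0.085 and 0.055.

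Of these 24 genes, Lef1, a transcription factor at the end of the Wnt pathway, had 99.2 to 120 CPM in control, 132 to 160 CPM with siRNA 1 and 133 to 147 CPM with siRNA 2. It rose by a log2 fold change of 0.44 ± 0.061 and 0.37 ± 0.061 (edgeR adjusted p = 4.42e-06 and 4.07e-05). Cdh2, which encodes N-cadherin, rose with both, by 0.39 ± 0.074 and 0.31 ± 0.074 (edgeR adjusted p = 0.000462 and 0.00483). In both genes all 8 libraries of the CMTR1 siRNAs lay above all controls. Over all genes tested, 15.5% had no overlap between siRNA 1 and control, and 19.4% none between siRNA 2 and control. Sox11, of the same SOX subgroup as Sox4, rose with siRNA 1 (0.22, edgeR adjusted p = 0.0255), and Etv1 rose with siRNA 2 (0.20, edgeR adjusted p = 0.0364).

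Falling genes were found in the same list. Fgf15, a secreted factor of the early epiblast and neural tissue, fell with both siRNAs (log2 fold changes of -0.42 and -0.51, edgeR adjusted p = 0.0394 and 0.00582). Tcf15, a helix-loop-helix factor of cells primed to leave the naive state, fell with siRNA 2 (-0.23, edgeR adjusted p = 0.0363). Dnmt3b, a DNA methyltransferase named here to complete the count of 3, fell with siRNA 2 (-0.13, edgeR adjusted p = 0.0497). Lin28a (547 ± 19.5 CPM in control), an RNA-binding protein, and Dnmt3a (462 ± 11.4 CPM) were the most abundant genes of the list that passed with neither siRNA. The siRNA 2 count of 6 genes was 3 without any 1 of the control libraries, without siRNA 2 replicate 1 or without siRNA 2 replicate 4, and the siRNA 1 count of 4 was 2 without control replicate 2 or siRNA 1 replicate 1.

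The naive markers, measured in the same libraries, mostly fell. With siRNA 1, 11 of 16 fell, and with siRNA 2, 10 of 16 fell, beside 1.97% and 3.55% of all genes tested. Nanog, Zfp42, Esrrb and Fbxo15 are also among the defining ESC markers above, so the falls in these lists are not separate results. By edgeR none rose with either siRNA, nor by DESeq2 or exactTest, and at an unadjusted p under 0.05 only Gbx2 was higher, with siRNA 1. The list had a median log2 fold change of -0.325 and -0.346. Klf4 went from 56.2 to 62.8 CPM in control to 39.4 to 52.6 CPM with siRNA 1 and 35.8 to 40.2 CPM with siRNA 2, and Nanog fell by log2 fold changes of -0.57 and -0.54 (edgeR adjusted p = 5.44e-05 and 5.04e-05). Klf2, Esrrb, Tfcp2l1 and Nr0b1 fell with both siRNAs as well, while Gbx2 had log2 fold changes of 0.20 and 0.087 and passed with neither. Without control replicate 2 the siRNA 1 count was 7. In the same fits 2 of the 8 formative and primed members were called with siRNA 1 and 1 with siRNA 2. Of all genes tested, 4.67% and 9.72% were called in either direction.

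Among 18 regulators of the exit itself, 3 were called with siRNA 1 and 5 with siRNA 2, beside 4.67% and 9.72% of all genes tested. Of these, Mapk3, a kinase of the FGF and ERK pathway, rose with both siRNAs (log2 fold changes of 0.38 and 0.31, edgeR adjusted p = 0.000146 and 0.00137), and so did Gsk3b, a kinase that restrains Wnt signalling (0.37 and 0.21, edgeR adjusted p = 1.48e-05 and 0.01). Tsc2 rose with siRNA 1. Tcf7l1, Fnip1 and Rbpj fell with siRNA 2, and the siRNA 2 count of 5 became 1 without control replicate 3 and 3 without control replicate 2. The list medians were -0.022 and 0.01, the latter -0.015 with TMM factors. Fgf4, the ligand upstream of this pathway and the relative of Fgf5, fell with both siRNAs, from 114 to 121 CPM in control to 76.0 to 88.6 CPM and 79.0 to 94.8 CPM (log2 fold changes of -0.52 and -0.43, edgeR adjusted p = 3.17e-07 and 2.9e-06).

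Epithelial genes, the class of genes at which Grhl2 is known to act, were read beside Grhl2. Of 16 tested, Cdh1, Esrp1 and Cldn4 fell with siRNA 1, and the list median was -0.205. Over all genes tested, 1.97% were called lower with siRNA 1 and 3.55% with siRNA 2. No gene of the list rose with either siRNA by edgeR, DESeq2 or exactTest, and 0 were higher at an unadjusted p under 0.05. Cdh1 had 491 to 551 CPM in control, 433 to 447 CPM with siRNA 1 and 462 to 510 CPM with siRNA 2, and like Grhl2 it was higher with siRNA 2 than with siRNA 1 (log2 difference of 0.13, edgeR adjusted p = 0.046). With siRNA 2 only Tjp3 fell (-0.52, edgeR adjusted p = 0.0382), and the median was -0.034. The siRNA 1 count was 0 without control replicate 3, 1 without control replicate 2 and 1 without siRNA 1 replicate 2, and the siRNA 2 count was 0 without any 1 of control replicates 2 and 3 and siRNA 2 replicates 1, 2 and 4, and 2 without siRNA 2 replicate 3.

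**Figure D4:**
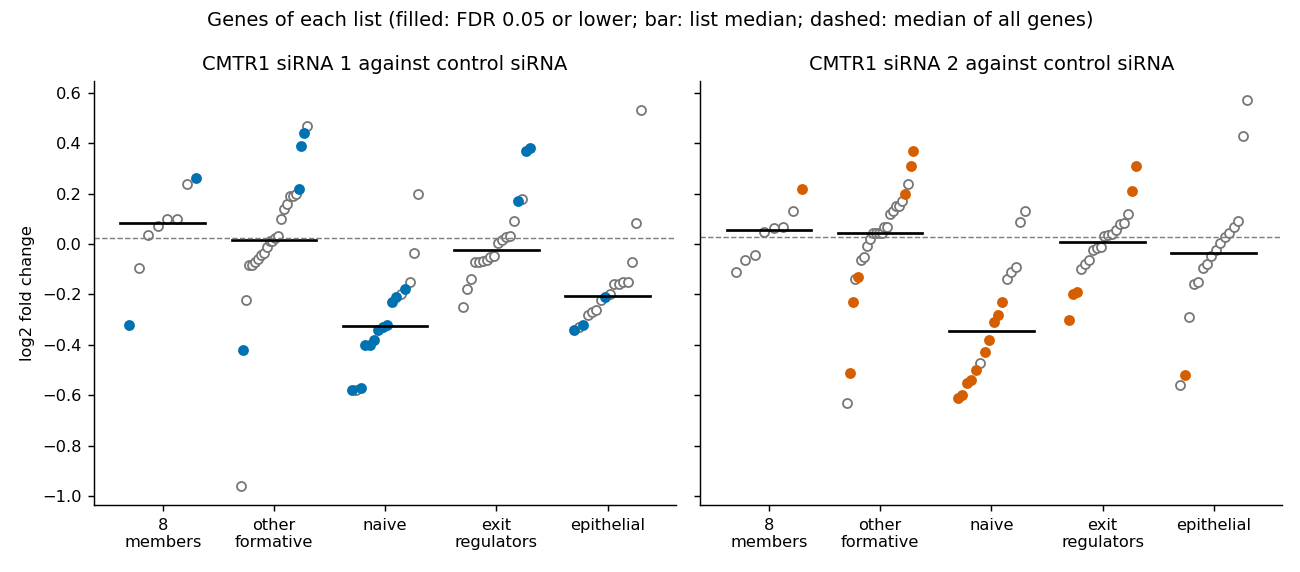
Log2 fold change of each gene of 5 lists for siRNA 1 (left) and siRNA 2 (right) against control, with filled points at an edgeR adjusted p of 0.05 or lower, a bar at the list median and a dashed line at the median of all genes tested. The medians of the naive list are -0.325 and -0.346, with Gbx2 above the line in both panels, and those of the members (0.085 and 0.055) and of the other formative genes (0.018 and 0.044) lie near it.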

How the data were processed

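RNA was sequenced from 11 libraries of E14 ESCs, 3 with control siRNA and 4 with each CMTR1 siRNA. The authors deposited counts, whole numbers of reads for each of 54838 Ensembl genes. Their methods and processing notes name cutadapt for trimming, STAR for alignment to GRCm38, Picard for the removal of PCR duplicates, and featureCounts. Versions, annotation release and strand setting are not given in the sources used here. Summary lines end 10 of the 11 files, in a layout other than that of featureCounts. They were left out, and give 39.25 to 44.27% of reads as in no gene.

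Symbols, exon lengths and coordinates came from GENCODE M21 for 54809 identifiers. The 16073 genes with more than 1 CPM in at least 4 libraries were fitted in edgeR 4.0.16 under R 4.3.3 with 1 model of the 3 groups, scaled by total counts, and tested by quasi-likelihood. Benjamini-Hochberg adjustment ran over the whole table, with calls at 0.05. Intervals of 95% are normal intervals from the SE, and counting coefficients of variation cover counting error only. Alternatives were TMM factors (0.986 to 1.012), DESeq2 1.42.0, edgeR's exactTest, other filters, the groups compared only, the replicate number as a block, and each library left out. The code was tested on simulated counts. It called 166 genes for siRNA 1 and 159 for siRNA 2 against control, of which 15 and 6 had not been changed. Of 100 genes changed by a factor of the square root of 2, it recovered 65 and 66. The changes called among the members are smaller than that factor.

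The members and the gene lists, written from general knowledge, were chosen with earlier results of these data known. Some genes stand in several lists. All members are named. Each list gives up to 6 called genes with the lowest adjusted p and up to 2 abundant genes that were not called, and genes beyond these complete small counts or were singled out after their values were seen. The 3 genes most similar to each called member (Pearson r of log2 CPM, prior count of 2) and genes that overlap a member were added. Of the 150 symbols listed, 149 were in the files, and 1 further relative of a member is not reported here. Within groups, library pairs differed by more than sampling noise (chi-square per gene of 1.29 to 2.82), so that none was treated as a library deposited a second time. Python 3.11.15 with numpy 2.4.6, pandas 2.3.3 and matplotlib 3.10.9 made the tables and plots.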

Additional observations from a re-analysis of the deposited data

Results flagged for a closer look

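The results below differed between the siRNAs in a direct test of siRNA 2 against siRNA 1 (edgeR's quasi-likelihood test, Benjamini-Hochberg adjustment over all genes). Log2 differences are siRNA 2 minus siRNA 1. Among the members these were Sox4 (-0.21) and Grhl2 (0.28).

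Of the naive and other formative genes, Esrrb differed by -0.21 and Lin28a by 0.15. Of the exit regulators, Fgfr1 differed by -0.19, Gsk3b by -0.16 and Grb2, an adaptor of receptor tyrosine kinases, by 0.22. Pou2f1, a relative of Pou3f1, differed by -0.12. Of 16 epithelial genes tested, 3 differed, Cdh1 (0.13), Epcam (0.17) and Krt8 (0.38), all higher with siRNA 2, as Grhl2 was. Called or not, 13 of the 16 were above 0 and 3 below. Of all genes tested, 7.44% differed between the siRNAs, with 4.49% higher with siRNA 2.

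Among markers of other cell types, Pax6, a neural factor, differed by -0.69, and its libraries held 12.4 to 16.3 CPM with siRNA 1 and 7.41 to 9.23 CPM with siRNA 2. Plet1 (0.80), Col1a1 (0.76) and Dcn (0.99) were higher with siRNA 2, as were Zscan4c (0.59), Zscan4d (0.73) and Usp17lc (0.90), genes of 2-cell-like cells. Several of these genes, such as Fgfr1, Grb2, Lin28a, Epcam, Krt8, Pou2f1 and Zscan4c, are named here because their difference was called. Dixon's test for an outlying value marked no library in the 16 groups of 4 member values tested. Chance alone would mark about 1 in 20. With 4 values the test marks only a library very far from the others, so it cannot show that none deviated. Foxd3 in siRNA 2 replicate 2 was not marked at 51.9 CPM, against 36.9 to 40.8 CPM in the other siRNA 2 libraries. Without that library its log2 fold change against control turned from 0.064 to -0.051. The control groups, of 3 libraries, were not tested.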

How the results depend on the processing

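The calls of Sox4 and Grhl2 with siRNA 1, and their differences between the siRNAs, kept their direction and passed under all 18 alternatives. Leaving out a library of the group not compared bears on the estimated spread and hardly on the fold change. For the results that moved, the cause was not tested. Fgf5 had the fewest reads, 44 to 71 per library. The alternatives for the exit regulators and the epithelial genes were added after the data were seen.

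Members called with siRNA 2 fell from 1 to 0 in DESeq2, and ran from 0 to 1 without single libraries. For the mean of both siRNAs they were 1, 2 with the filter in all libraries, 4 with the replicate block, and 0 to 3 without single libraries. Other formative genes called with siRNA 1 were 4, 2 in DESeq2 and 2 to 5 without single libraries. With siRNA 2 they were 6, 3 with no filter, 3 with the replicate block and 3 to 6 without single libraries. Naive genes called with siRNA 1 were 7 to 11 without single libraries. Exit regulators called with siRNA 1 were 3, 5 with no filter, 5 with the filter in all libraries, 6 in the groups compared only, 6 with the replicate block, and 2 to 5 without single libraries. With siRNA 2 they were 5, and 1 to 5 without single libraries. Epithelial genes called were 0 to 3 without single libraries for siRNA 1. For siRNA 2 they were 1, 0 in DESeq2, 2 with the replicate block, and 0 to 2 without single libraries.

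Over all genes, calls without single libraries were 355 to 850 for siRNA 1 (lowest without control replicate 2), 807 to 1667 for siRNA 2 (lowest without control replicate 3), 499 to 1215 for the mean of both (lowest without control replicate 2) and 724 to 1374 between the siRNAs (lowest without siRNA 1 replicate 2). DESeq2 called 958 genes for siRNA 2 and 740 between the siRNAs.

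Log2 fold changes that crossed 0 were of members not called in the comparison concerned. Without single libraries, Fgf5 ran from -0.069 to 0.18 with siRNA 1, from -0.094 to 0.059 for the mean of both and from -0.25 to 0.005 between the siRNAs. Foxd3 ran from -0.051 to 0.13 with siRNA 2 and from -0.074 to 0.017 for the mean of both. Grhl2 ran from -0.1 to 0.011 with siRNA 2, Otx2 from -0.054 to 0.011 for the mean of both, and Zic2 from -0.076 to 0.006 between the siRNAs. With the replicate block the mean of both was 0.006 for Fgf5 and 0.022 for Foxd3.

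Whether the replicate numbers pair the libraries was not settled. Deviations of same-numbered libraries from their group means correlated at -0.057 to 0.062 (mean 0.01) in 10 pairs. In 30 pairs of other numbers they correlated at -0.072 to 0.074 (mean -0.003). A library correlated best with its own number in 8 of 20 cases. These values show no strong pairing and cannot exclude a weak one. The replicate block called 840 genes for siRNA 1 and 1486 for siRNA 2, against 751 and 1562 without it. For the mean of both it called Pou3f1, Sall2, Sox4 and Grhl2, and with siRNA 1 it also called Sall2 (edgeR adjusted p = 0.00826).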
